A study of Bos taurus with 9 samples.

Results

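The genes described here are 10 members of the WNT signaling pathway and of the markers used for epithelial stem cells, out of 20679 genes quantified in 3D-cultured bovine uterine gland fragments. They were taken by gene symbol: the ligands WNT4, WNT5A and WNT7A, the R-spondin receptors LGR4 and LGR5, the membrane ubiquitin ligases RNF43 and ZNRF3, the feedback gene AXIN2, and the stem cell markers PROM1 and ALDH1A1. Each symbol matched 1 row of the count table and 1 row of the TPM table, where TPM is transcript abundance corrected for gene length and scaled to a common library total. Fragments of glands from Bos taurus uteri were embedded in Matrigel, a basement membrane gel, and cultured for 5 days in a serum-free DMEM/F12 medium that held bovine serum albumin, ascorbic acid, transferrin, sodium selenite and insulin in every group. No group received a WNT protein or an R-spondin. Cysts (CYST, 3 libraries) were grown in Matrigel without epidermal growth factor (EGF), uterine gland-like structures (UG-LIKE, 3 libraries) in Matrigel with EGF, and the third group (MAT + COL, 3 libraries) in Matrigel with EGF and type I collagen. The UG-LIKE libraries are called MAT where they are set against MAT + COL, so both names stand for the same 3 libraries. Breed and age of the animals are not given in the sources used here, and the labels do not say whether libraries of a group came from separate cows. The text of the study speaks of individuals among the EGF cultures without tying them to libraries or replicate numbers, so the p-values measure the spread between these libraries.

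WNT proteins are lipid-modified ligands that need the cargo receptor WLS to leave the cell that makes them. They bind Frizzled receptors on neighbouring cells, and in the canonical branch this stops the destruction complex, a scaffold of AXIN and APC with kinases, from removing beta-catenin, which then acts with TCF/LEF factors on target genes. RNF43 and ZNRF3 remove Frizzled receptors from the membrane, and R-spondins bound to LGR4, LGR5 or LGR6 remove RNF43 and ZNRF3 in turn. In the intestinal crypt LGR5 marks the stem cells and AXIN2 is a general readout of the canonical branch. In the uterus WNT4, WNT5A and WNT7A are known for their part in gland formation after birth.

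Total counts ranged from 6568968 to 17948600 per library, and a gene without a count in a library could still hold up to 3 counts, which is a CPM (count scaled to the library total, like TPM but without gene length) of 0.457 in the smallest library and 0.167 in the largest. These limits cover counting error only. The libraries carry replicate numbers 1 to 3 in the labels, and libraries of the same number deviated from their group means together, so each comparison was fitted without and with the number as a block. The samples are labelled as epithelial cells, and the lowest TPM in any library was 7952 for the keratin KRT8 and 395.2 for EPCAM. Stroma markers were present as well, with a summed TPM of 1208 to 4878 over 10 genes and none of the 10 at 0 in all libraries. Summed markers of endothelium (8.60 to 27.5), immune cells (19.7 to 48.3, with CD79A at 0 in every library), smooth muscle (37.8 to 169.1) and ciliated cells (12.8 to 36.3) were lower. In such bulk libraries fewer cells of a type and less RNA per cell cannot be told apart.

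The levels of the 10 genes spanned several orders of magnitude, and most of the pathway genes proper were close to the detection limit. ALDH1A1, a retinaldehyde dehydrogenase, was by far the highest, with a mean TPM of 946.5 over the 9 libraries and a range of 425.1 to 1736. WNT5A followed at a mean TPM of 34.3 (15.9 to 54.2) and LGR4 at 9.31 (5.72 to 14.2). The ranges of these 3 genes did not overlap each other, nor did that of LGR4 overlap that of RNF43. RNF43 (mean TPM 2.71), PROM1 (2.37) and LGR5 (1.31) came next, and each overlapped its neighbour in the order. WNT7A (0.312), AXIN2 (0.246), WNT4 (0.122) and ZNRF3 (0.120) never reached a TPM of 1 in any library, and their order cannot be told from their spread. Only 4 of the 10 genes, ALDH1A1, WNT5A, LGR4 and PROM1, were above a TPM of 1 in all 9 libraries.

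**Figure D1:**
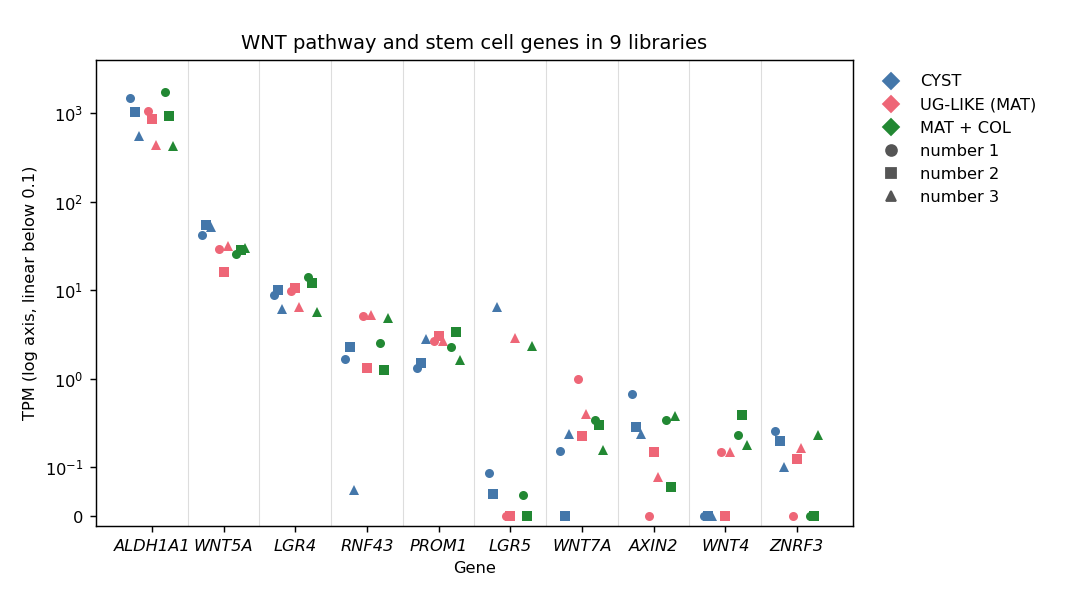
TPM of the 10 genes in each of the 9 libraries, on an axis that is logarithmic above 0.1 and linear below it, with genes ordered by mean TPM. Colour gives the group and shape the replicate number, and LGR5 is seen above a TPM of 1 only in the 3 libraries of number 3, while WNT7A, AXIN2, WNT4 and ZNRF3 stay below 1 throughout.

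The rest of the pathway showed which of its parts these cultures transcribed. Of 21 genes for WNT ligands and their secretion, WNT5A, the O-acyltransferase PORCN and WLS were above a TPM of 1 in all 9 libraries, WNT3, WNT8A and WNT9B had no count, and 7 in all never exceeded 3 counts. Among 16 Frizzled receptors and co-receptors, 8 were above a TPM of 1 in all libraries, with the highest mean for FZD6 (92.5), and ROR1 had no count. In the R-spondin module LGR4 alone of 9 genes passed a TPM of 1 throughout, and RSPO1 and RSPO4 had no count. The intracellular part was well represented: 8 of 13 destruction complex genes and 6 of 11 TCF/LEF genes and co-factors were above a TPM of 1 in all libraries, led by CTNNB1, the gene for beta-catenin, at a mean of 558.7, and LEF1 at 54.8. Of 15 secreted and surface inhibitors 4, namely DKK4, SFRP1, SFRP5 and NOTUM, had no count, and the DKK receptor KREMEN1 had the highest mean at 89.4. RSPO1, RSPO4, WNT3, WNT8A, WNT9B, ROR1, DKK4, SFRP1, SFRP5 and NOTUM are named because they had no count, and PORCN because it passed in every library, so these names were chosen after the values were seen.

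**Figure D2:**
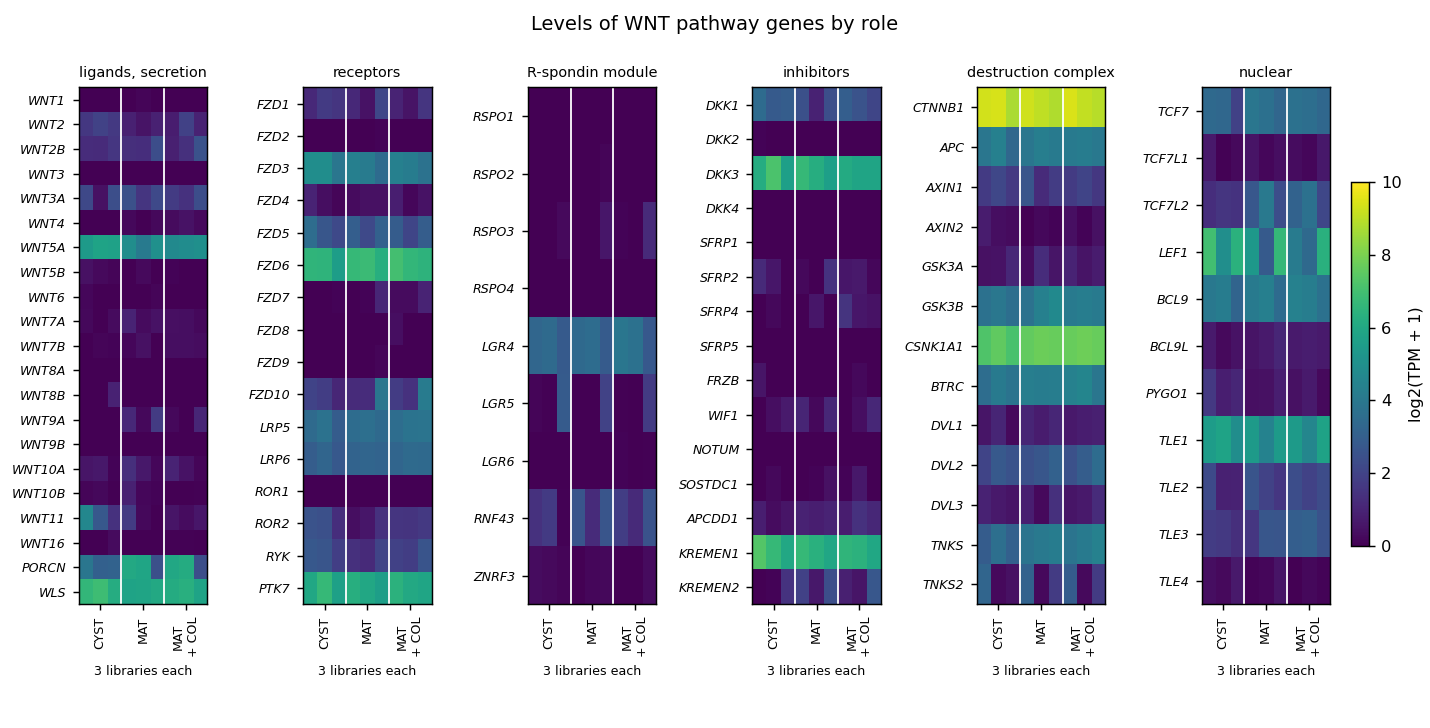
Heat map of log2(TPM + 1) for WNT pathway genes in 6 lists by role, with 1 column per library in the order of replicate numbers 1 to 3 within CYST, MAT and MAT + COL. CTNNB1, CSNK1A1, FZD6, KREMEN1, WLS and WNT5A are bright in every column, and the R-spondin module is dark apart from LGR4, RNF43 and the LGR5 cells of number 3.

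The first comparison, of UG-LIKE structures with cysts, asked which of these genes changed with EGF. WNT5A, mainly a ligand of the beta-catenin-independent branch (ENSBTAG00000020221, ARS-UCD2.0 chromosome 22 from 45540765 to 45558216, plus strand), was lower in both EGF groups than in cysts. Its TPM was 42.3, 54.2 and 51.1 in CYST numbers 1, 2 and 3, 29.0, 15.9 and 31.6 in UG-LIKE, and 25.7, 28.5 and 30.2 in MAT + COL. Every library with EGF was below every CYST library. Group means were 49.2 ± 6.18 (SD, n = 3), 25.5 ± 8.41 (SD, n = 3) and 28.2 ± 2.28 (SD, n = 3). In the fit without a block the Log2FC of UG-LIKE against CYST was -0.97 (standard error 0.30), with an edgeR adjusted p = 0.126 that does not pass 0.05, and with the replicate block it was -1.02 (standard error 0.25, edgeR adjusted p = 0.0416), which passes. The Log2FC of MAT + COL against CYST was -0.87 (standard error 0.21, edgeR adjusted p = 0.0751), and -0.87 (standard error 0.16, edgeR adjusted p = 0.0403) with the block. Both comparisons use the same CYST libraries and are not independent of each other. Within numbers 1, 2 and 3 the difference in log2 CPM between UG-LIKE and CYST was -0.51, -1.65 and -0.87, and between MAT + COL and CYST -0.82, -0.87 and -0.97. The blocked call was lost when both libraries of number 1 (adjusted p = 0.136 in either comparison) or of number 2 (0.193 for UG-LIKE, 0.21 for MAT + COL) were left out.

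That call has to be read against the whole table. Without a block, 0 of the 5 members that passed the filter on low counts were called for UG-LIKE against CYST, where 1.79% of all 12074 genes tested were called at an adjusted p under 0.05. With the block 1 of the 5, WNT5A, was called, beside 10.6% of all genes. For MAT + COL against CYST 0 of 6 members were called beside 1.49% of 12509 genes without the block, and 1 of 6 beside 5.26% with it. The median Log2FC of the tested members was 0.10 for UG-LIKE against CYST, close to the 0.01 of all tested genes. The study also required a change of more than 1 on the log2 scale in either direction and a TPM over 1 for a differentially expressed gene. By these criteria WNT5A passes for UG-LIKE against CYST only in the blocked fit, and it misses the fold limit for MAT + COL against CYST.

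WNT11 and WLS, 2 further genes of ligand supply, were lower with EGF and passed only with the block. WLS, the sorting receptor for WNT proteins, had a TPM of 96.8, 116.4 and 72.3 in CYST, 54.6, 55.6 and 64.0 in UG-LIKE, and 70.4, 77.7 and 55.3 in MAT + COL. Each CYST library was above each UG-LIKE library, while MAT + COL overlapped CYST. Its Log2FC of UG-LIKE against CYST was -0.70 (standard error 0.18). The edgeR adjusted p = 0.0842 of the unblocked fit became 0.0475 once the number was a block, and for MAT + COL against CYST it missed the threshold in both fits (0.14 and 0.0742). WNT11, a ligand of the beta-catenin-independent branch that is named here after its values were seen, had a TPM of 23.9, 5.71 and 1.72 in CYST but 2.31, 0.153 and 0 in UG-LIKE and 0.473, 0.255 and 0.540 in MAT + COL. The 3 MAT + COL libraries were below all CYST libraries, and the UG-LIKE library of number 1 was above the CYST library of number 3. With the block its Log2FC was -4.29 (standard error 0.64, edgeR adjusted p = 0.0116) for UG-LIKE and -4.07 (standard error 0.82, edgeR adjusted p = 0.0468) for MAT + COL against CYST, and without it the adjusted p was 0.18 and 0.0627. In all, 7 of the 21 genes for ligands and secretion passed the filter for UG-LIKE against CYST. Without the block 0 of the 7 were called, beside 1.79% of all genes. With it 3 of them, WNT5A, WNT11 and WLS, were called lower and none higher, beside 10.6% of all genes. The same list had a median Log2FC of -0.70 in that comparison, beside 0.01 for all tested genes. Its signs were mixed, with 4 negative and 3 positive (WNT2B, WNT3A and PORCN, the last at 2.07 with an edgeR adjusted p = 0.198 without the block).

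Markers of stroma and smooth muscle were given the same comparison as these ligands. Of 10 stroma markers 9 were tested for UG-LIKE against CYST and 8 of the 9 had a negative Log2FC, with a median of -0.65. Only decorin (DCN) was called lower, with a Log2FC of -1.12 (standard error 0.23, edgeR adjusted p = 0.0252 with the block and 0.376 without), and vimentin (VIM) was called higher with the block. The summed TPM of the stroma list without VIM was 2021, 2839 and 4566 in CYST numbers 1, 2 and 3. It was 1639, 755.5 and 3002 in UG-LIKE, and 1905, 2017 and 3506 in MAT + COL. The ranges of the groups overlapped, but within each number the sum was lower in both EGF groups than in CYST. The summed TPM of 5 smooth muscle markers was 118.3 to 169.1 in CYST, 37.8 to 86.9 in UG-LIKE and 66.3 to 85.5 in MAT + COL. These sums did not overlap between CYST and either EGF group. Gene by gene only ACTG2 kept apart from both, at 48.1 to 86.3 in CYST, 13.4 to 40.1 in UG-LIKE and 24.3 to 37.5 in MAT + COL. MYH11, DES, ACTA2 and CNN1 each overlapped between CYST and an EGF group. Of these 5 genes 4 had a negative Log2FC for UG-LIKE against CYST, with a median of -0.91 and none called, and 1, the actin ACTG2, was called lower in MAT + COL with the block (Log2FC -1.15, edgeR adjusted p = 0.0312, and 0.0965 without the block). The 8 epithelial markers summed to a TPM of 19140 to 21940 in CYST, 31230 to 48630 in UG-LIKE and 31470 to 42970 in MAT + COL, higher in every library with EGF. The part of any of these cell types in the lower WNT5A, WNT11 and WLS was not tested.

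The other WNT ligands of the set were barely detected. WNT4, which is needed for stromal and glandular development in the mouse uterus (ENSBTAG00000051083, chromosome 2 from 130683418 to 130710197, plus strand), had 0 counts in each CYST library, 1, 0 and 2 counts in UG-LIKE and 4, 7 and 3 counts in MAT + COL. All MAT + COL libraries were thus above all libraries of the other groups, but 0 counts in a CYST library allow up to 3, and the lowest MAT + COL library had 3, so no fold is given. WNT4 did not pass the filter in any comparison, and without a filter the edgeR adjusted p for MAT + COL against CYST was 0.236 (unadjusted p = 0.0351 from edgeR). WNT7A, an epithelial ligand (ENSBTAG00000001668, chromosome 22 from 58145641 to 58211815, plus strand), had 2, 0 and 4 counts in CYST, 10, 6 and 8 in UG-LIKE and 9, 8 and 4 in MAT + COL. The 3 UG-LIKE counts were above the CYST counts, yet after scaling to TPM the groups overlapped, and WNT7A did not pass the filter either. Differences in WNT4 and WNT7A were not detectable at this depth.

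**Figure D3:**
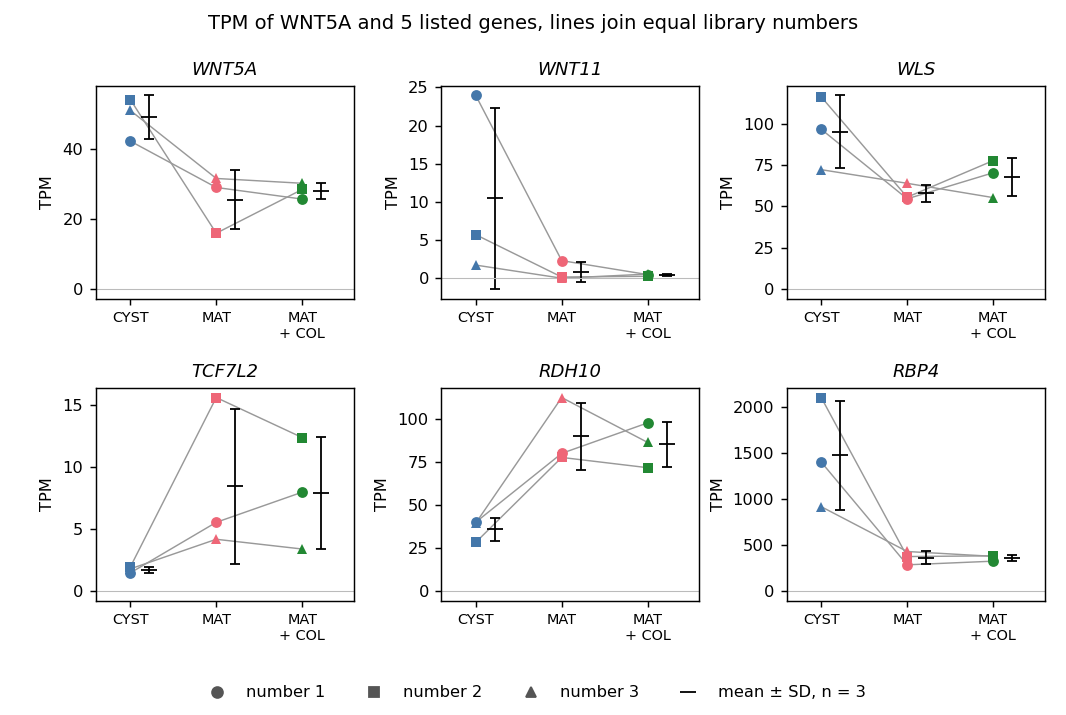
TPM of WNT5A and 5 genes of the wider lists in the 9 libraries, with lines joining libraries of equal number and bars for the mean ± SD of 3 libraries. WNT5A, WLS and RBP4 are lower in MAT than in CYST in each number, RDH10 and TCF7L2 are higher, and WNT11 is high only in CYST numbers 1 and 2.

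Among the R-spondin receptors, LGR4 (ENSBTAG00000002606, chromosome 15 from 58091974 to 58197586, minus strand) did not separate the groups. Its TPM was 8.88, 10.1 and 6.06 in CYST, 9.71, 10.6 and 6.41 in UG-LIKE, and 14.2, 12.2 and 5.72 in MAT + COL. The groups overlapped in every comparison, and in each group the library of number 3 was the lowest. The Log2FC was 0.10 (standard error 0.26, edgeR adjusted p = 0.873) for UG-LIKE against CYST and 0.29 (standard error 0.31, edgeR adjusted p = 0.65) for MAT + COL against CYST.

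LGR5, the stem cell receptor of the same family (ENSBTAG00000013256, chromosome 5 from 1094296 to 1219706, plus strand), divided the libraries by replicate number and not by group. In number 3 it had 93 counts in CYST, 51 in UG-LIKE and 51 in MAT + COL, which is a TPM of 6.41, 2.91 and 2.32. In number 1 it had 1, 0 and 1 counts, and in number 2 it had 1, 0 and 0 counts. Each of the 6 libraries of numbers 1 and 2 thus stayed under the limit of 3 counts, and each of the 3 libraries of number 3 stood far above it. LGR5 therefore did not pass the filter in any comparison of groups, and no fold between groups is given for it. LGR5 is given here as a description with no test, since the split by number was seen first and the gene clears a filter over all 9 libraries only through number 3.

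The membrane ligases RNF43 and ZNRF3, which act on Frizzled receptors, were low. RNF43 (ENSBTAG00000020119, chromosome 19 from 9322397 to 9386674, minus strand) had a TPM of 1.66, 2.27 and 0.0535 in CYST, 5.14, 1.33 and 5.23 in UG-LIKE, and 2.54, 1.27 and 4.88 in MAT + COL. Its lowest value was the CYST library of number 3, with 1 count, and its highest the UG-LIKE library of the same number, with 118 counts. In number 2 the direction was the opposite, so the Log2FC of 1.62 for UG-LIKE against CYST came with a standard error of 0.95 (edgeR adjusted p = 0.385), and that of 1.16 for MAT + COL against CYST with 0.96 (edgeR adjusted p = 0.531). ZNRF3 (ENSBTAG00000022036, chromosome 17 from 68259360 to 68401778, plus strand) had 4, 6 and 2 counts in CYST, 0, 4 and 4 in UG-LIKE and 0, 0 and 7 in MAT + COL. It overlapped between all groups and passed no filter.

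AXIN2, the negative feedback scaffold of the canonical branch (ENSBTAG00000030162, chromosome 19 from 62212833 to 62241582, minus strand), was near the limit too. It had 11, 9 and 5 counts in CYST, 0, 5 and 2 in UG-LIKE and 11, 2 and 12 in MAT + COL, or mean TPM of 0.402 ± 0.242 (SD, n = 3), 0.0760 ± 0.0744 (SD, n = 3) and 0.259 ± 0.174 (SD, n = 3). Each UG-LIKE library was below each CYST library in TPM, while MAT + COL spanned both. Without a filter the Log2FC of UG-LIKE against CYST was -2.15 (standard error 1.25, edgeR adjusted p = 0.427). AXIN2 passed the filter only for MAT + COL against CYST, where the Log2FC was -0.64 (standard error 0.87, edgeR adjusted p = 0.722). Of 16 feedback and target genes, 8 passed the filter for UG-LIKE against CYST, none was called in either fit, and 4 had a positive and 4 a negative Log2FC. DKK1, a secreted inhibitor that is itself a target, had a Log2FC of -1.28 (standard error 0.64, edgeR adjusted p = 0.303), and MYC, the target gene with the highest mean TPM (101.6), one of -0.18 (standard error 0.22, edgeR adjusted p = 0.707).

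Receptors and transducers showed few calls. None of 11 tested Frizzled receptors and co-receptors was called in any comparison or fit, and the lowest p among them for UG-LIKE against CYST without the block belonged to ROR2, a receptor for WNT5A, and with the block to FZD3 (Log2FC -0.62, edgeR adjusted p = 0.0759), which is named after its values were seen. The TPM of ROR2 was 4.93, 4.45 and 1.44 in CYST, 0.281, 0.527 and 1.72 in UG-LIKE, and 1.94, 1.85 and 2.16 in MAT + COL. The Log2FC of UG-LIKE against CYST was -1.99 for this receptor (standard error 0.73, edgeR adjusted p = 0.176). FZD6 had a Log2FC of 0.37 (standard error 0.23, edgeR adjusted p = 0.424), and its TPM overlapped between the groups. In the destruction complex list, TNKS, a tankyrase that marks AXIN proteins for removal, was called higher in UG-LIKE with the block (Log2FC 0.87, standard error 0.21, edgeR adjusted p = 0.0393) and not without it (0.113). CTNNB1 had a Log2FC of -0.10 (standard error 0.19, edgeR adjusted p = 0.818). TCF7L2, a TCF factor, had a TPM of 1.45, 1.93 and 1.77 in CYST, 5.52, 15.6 and 4.16 in UG-LIKE, and 7.95, 12.3 and 3.37 in MAT + COL. Every library with EGF was above every CYST library, and the Log2FC was 2.26 (standard error 0.53, edgeR adjusted p = 0.0713) without and 2.07 (standard error 0.45, edgeR adjusted p = 0.0309) with the block for UG-LIKE against CYST, and 2.11 (0.069 without and 0.0616 with the block) for MAT + COL against CYST. LEF1 did not separate the groups: its TPM ran from 29.7 to 125.7 in CYST, 6.11 to 101.5 in UG-LIKE and 9.67 to 80.5 in MAT + COL.

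Of the stem cell markers in the set, PROM1 (ENSBTAG00000013736, chromosome 6 from 111165303 to 111279631, minus strand), which encodes the membrane glycoprotein prominin-1, was low in all groups. Its TPM was 1.31, 1.50 and 2.84 in CYST, 2.65, 3.07 and 2.65 in UG-LIKE, and 2.29, 3.40 and 1.63 in MAT + COL. The CYST library of number 3 lay among the EGF libraries, and the groups overlapped. The Log2FC was 0.50 (standard error 0.55, edgeR adjusted p = 0.658) for UG-LIKE and 0.25 (standard error 0.56, edgeR adjusted p = 0.843) for MAT + COL against CYST.

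ALDH1A1 (ENSBTAG00000008103, chromosome 8 from 49053229 to 49106742, minus strand), which makes retinoic acid and serves as a progenitor marker in endometrial epithelium, was the most abundant gene of the set. Its TPM was 1495, 1033 and 548.5 in CYST, 1065, 851.1 and 440.6 in UG-LIKE, and 1736, 924 and 425.1 in MAT + COL. In each group number 1 was the highest and number 3 the lowest, and the group means of 1025 ± 473.1, 785.6 ± 317.4 and 1029 ± 661.8 (SD, n = 3 each) lay within that spread. The Log2FC of UG-LIKE against CYST was -0.37, with a standard error of 0.37 and an edgeR adjusted p = 0.629 in the unblocked fit, against a standard error of 0.17 and an edgeR adjusted p = 0.193 in the blocked one. Between MAT + COL and CYST it was -0.07 (standard error 0.47, edgeR adjusted p = 0.954).

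In the wider list of 18 epithelial stem and progenitor markers, 11 passed the filter for UG-LIKE against CYST. Of these, 6 had a positive and 5 a negative Log2FC. The hyaluronan receptor CD44 was the only 1 called, in both fits and in the higher direction. Of all genes, 1.79% were called without the block and 10.6% with it, so 1 call is no result about the list. CD44 had a TPM of 49.7 to 77.7 in CYST, 143.1 to 197.8 in UG-LIKE and 127.3 to 155.4 in MAT + COL. Its Log2FC of 1.36 (standard error 0.19, edgeR adjusted p = 0.0256) for UG-LIKE and 0.99 (standard error 0.16, edgeR adjusted p = 0.0383) for MAT + COL against CYST lost the call when single libraries were left out. For UG-LIKE this held without CYST number 1 (adjusted p = 0.103) or 2 (0.0918) and without UG-LIKE number 1 (0.0953) or 2 (0.0617), and for MAT + COL without any 1 of the 6 libraries (0.0527 to 0.16).

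Retinoid genes around ALDH1A1 moved with EGF although ALDH1A1 itself did not pass. Of 15 retinoid enzymes, binding proteins and receptors 11 were tested for UG-LIKE against CYST, where 1.79% of all genes were called without the block and 10.6% with it. RBP4, the retinol carrier secreted by endometrial glands, had a TPM of 1402, 2104 and 916.5 in CYST, 284.1, 373.9 and 429 in UG-LIKE, and 323.7, 382.2 and 376.1 in MAT + COL. It fell in both comparisons with cysts, with a Log2FC of -1.99 in UG-LIKE (standard error 0.28, edgeR adjusted p = 0.0269) and of -2.05 under added collagen (standard error 0.26, edgeR adjusted p = 0.0268). That call was lost without CYST number 1 (adjusted p = 0.109 and 0.117), CYST number 2 (0.0973 and 0.0758), UG-LIKE number 1 (0.128) or 2 (0.0757), and MAT + COL number 1 (0.108) or 2 (0.123). With the block, 3 retinoid genes were called higher in UG-LIKE and are named after their values were seen: RDH10, a retinol dehydrogenase (Log2FC 1.31, standard error 0.18, edgeR adjusted p = 0.0096), ALDH1A3, another retinaldehyde dehydrogenase (3.27, standard error 0.43, edgeR adjusted p = 0.00756), and CRABP2, an intracellular retinoic acid carrier (2.64, standard error 0.51, edgeR adjusted p = 0.0232). Without the block their adjusted p values were 0.0569, 0.0892 and 0.0545. In MAT + COL, RDH10 (0.0261) and ALDH1A3 (0.0334) were called higher with the block and CRABP2 was not (0.0736). ALDH1A3 reached a TPM of 303.3 to 507.8 in UG-LIKE, against 15.4 to 110.2 in CYST.

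**Figure D4:**
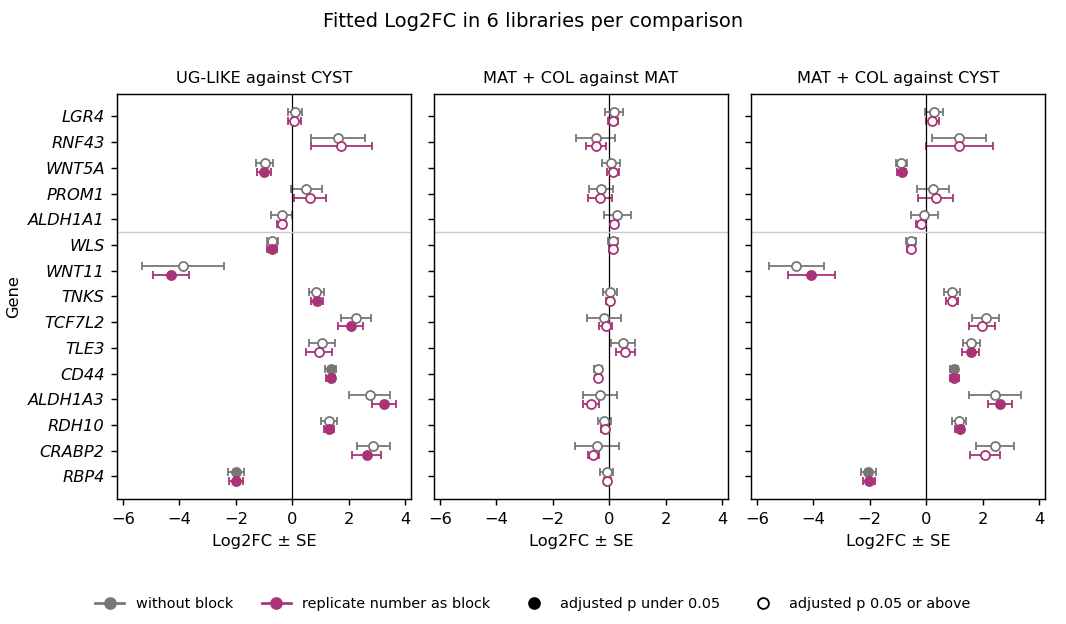
Log2FC ± standard error from edgeR in the 3 comparisons, for the 5 members that passed the filter in all of them (above the line) and for 10 genes of the wider lists (below the line), without a block in grey and with the replicate number as a block in purple. Filled points have an adjusted p under 0.05: WNT5A is filled only with the block, CD44 and RBP4 in both fits, and no point is filled for MAT + COL against MAT.

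Over the 121 genes of the wider lists found in the table, 69 were tested for UG-LIKE against CYST. Without the block 1 was called higher (CD44) and 1 lower (RBP4), and with it 6 were higher and 4 lower, which is 14.5% of the 69 beside the 10.6% of all genes given above. Between MAT + COL and CYST 71 were tested, the same 2 genes were called without the block, and 4 were higher and 3 lower with it (9.86% of 71). TLE3, a Groucho co-repressor named after its values were seen, was among these 7 (Log2FC 1.58, standard error 0.31, edgeR adjusted p = 0.0431 with the block and 0.0545 without). These lists were chosen with earlier results of these data known.

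The comparison of MAT + COL with MAT asked what type I collagen added under EGF, and no WNT or stem cell gene was called. All 5 tested members, and all 74 tested genes of the wider lists, missed the threshold with and without the block. The background was the same, with 0% of 12470 genes called in either edgeR fit, 51 genes (0.409%) at an unadjusted p under 0.05 without the block and 618 (4.96%) with it. DESeq2 called 0 of these members and listed genes as well. Log2FC values of the members were 0.06 (standard error 0.30) for WNT5A, 0.17 (0.33) for LGR4, -0.48 (0.70) for RNF43, -0.28 (0.43) for PROM1 and 0.29 (0.47) for ALDH1A1, each with an edgeR adjusted p = 1. With the block the standard errors were smaller, at 0.21 for WNT5A, 0.18 for LGR4, 0.34 for RNF43, 0.42 for PROM1 and 0.14 for ALDH1A1, and the lowest adjusted p among the 5 was 0.955. A p that misses the threshold does not show that the levels were equal. In ALDH1A1 the log2 difference between the groups was 0.57, 0.07 and -0.09 in numbers 1, 2 and 3, and in LGR4 it was 0.41, 0.15 and -0.20.

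ALDH1A1 also differed more by replicate number than by group. In a fit of all 9 libraries with group and number as terms, a test added after the values were seen, 9.92% of 12858 genes were called for the number, and so was ALDH1A1. Its direction was the opposite of that of LGR5: the mean TPM of ALDH1A1 was 1432 in number 1, 935.9 in number 2 and 471.4 in number 3, whereas that of LGR5 was 0.0443, 0.0152 and 3.88. For ALDH1A1 the log2 difference of number 3 from number 1 was -1.37 (edgeR adjusted p = 0.00479, at most 0.0275 with a library left out), and the number took 88.2% of the sum of squares of its log2 CPM and the group 6.32%, beside medians of 32% and 29.9% over all genes that passed the filter. For LGR4 the number took 76.5%, with mean TPM of 10.92, 10.96 and 6.06, and the edgeR adjusted p = 0.105 did not pass, except without CYST number 3 (0.0314). WNT5A (0.282), PROM1 (0.758), RNF43 (0.832) and AXIN2 (0.872) gave adjusted p values far from the threshold. The labels do not say what a number stands for.

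LGR5 was 1 of 6 genes in the whole table with at least 20 counts in all 3 libraries of a number, here number 3, and at most 3 in the other 6 libraries. The split of LGR5 was seen before this count was made, so its place among the 6 is a description with no test. For number 2 there were 2 such genes and for number 1 there were 0. The other named genes of the 6 were ANKS1B, CCK and OTOR, and the last 2 carry no symbol. Likeness between genes was measured by Pearson correlation of TMM-normalized log2 CPM over the 9 libraries. The genes most like LGR5 were NSG2 (r = 0.985), CCK (0.985) and ANKS1B (0.983). This likeness is set by the split between number 3 and the rest. NSG2 had a TPM of 4.47 to 7.87 in number 3 and at most 0.165 elsewhere, and CCK, the gene for cholecystokinin, 13.8 to 16.7 in number 3 and 0 elsewhere. The genes most like ALDH1A1 were DYRK1A (0.973), SLC25A53 (0.962) and MYL9 (0.961), and those most like AXIN2 were UQCC5 (0.935), SLC6A9 (0.921) and RBM34 (0.915). These correlations describe 9 libraries that share groups and numbers, and they carry no test.

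Part of the stroma markers followed the number too. The summed TPM of the 10 stroma markers was 3798 to 4878 in number 3, above 2132 to 2260 in number 1 and 1208 to 3101 in number 2. Of these genes 5 (DCN, LUM, PDGFRA, THY1 and VIM) were called for the number, beside 9.92% of all genes. COL1A1 (edgeR adjusted p = 0.0727), COL1A2 (0.114), COL3A1 (0.0823) and PDGFRB (0.901) were tested and not called. The endothelial marker PECAM1 (0.0439) and the ciliated cell marker FOXJ1 (0.00945) were called for the number as well. DCN had a TPM of 1932, 996.2 and 1216 in the CYST, UG-LIKE and MAT + COL libraries of number 3, and 236 to 793.8 in the other 6. Within number 3 the stroma markers did not share 1 order of groups: DCN, LUM and THY1 were highest in CYST, while PDGFRA (11.6, 15.3 and 15.8 in CYST, UG-LIKE and MAT + COL) and VIM (312.1, 796 and 809.7) were lowest there. LEF1 (edgeR adjusted p = 0.0132) and the matricellular gene SMOC2 (0.0163), which accompanies LGR5 in intestinal stem cells and is named here after its values were seen, were called for the number as well. SMOC2 had a TPM of 2.85 to 4.07 in number 3 and 0.441 to 1.17 elsewhere. Other genes of the stem and progenitor list differed from SMOC2. ASCL2 (edgeR adjusted p = 0.157), PROM1 (0.758) and AXIN2 (0.872) were not called for the number. BMI1 (0.0415) was called with number 2 the highest, and ALDH1A1 was called with number 3 the lowest. Summed epithelial markers overlapped between the numbers, at 21940 to 48630 in number 1, 21190 to 36620 in number 2 and 19140 to 42970 in number 3, and 1 of the 8 genes, PAX8, was called for the number (log2 difference of number 3 from number 1 -0.75, edgeR adjusted p = 0.0305). The part of stroma cells in the LGR5, LEF1 and SMOC2 levels was not tested.

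**Figure D5:**
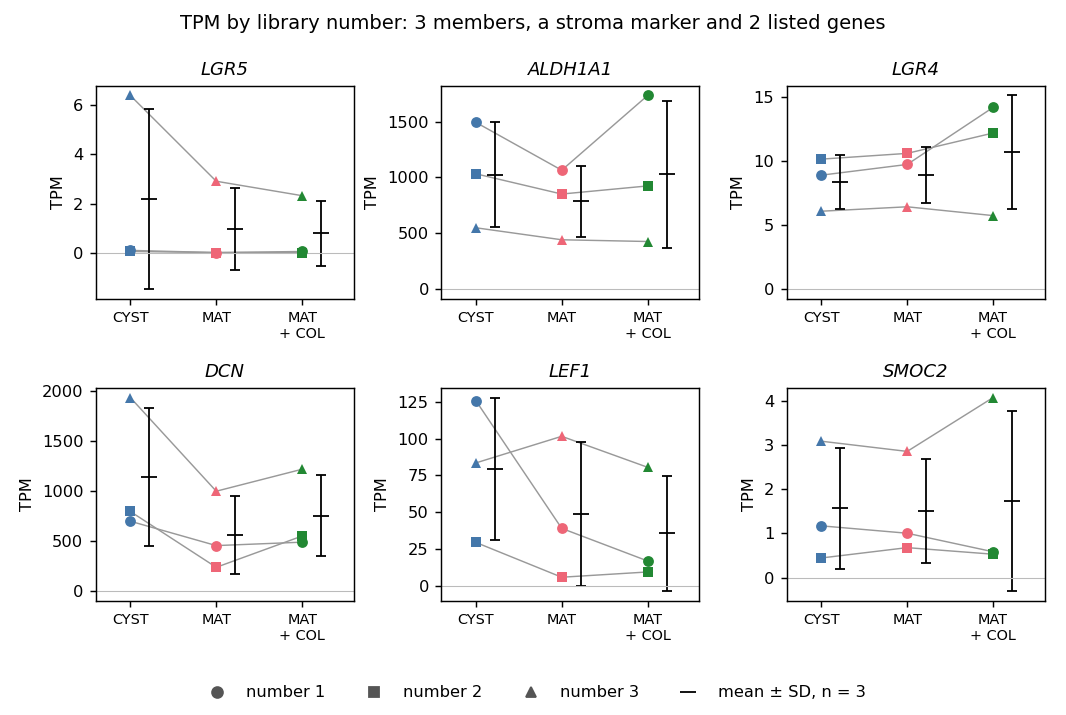
TPM of LGR5, ALDH1A1, LGR4, the stroma marker DCN, LEF1 and SMOC2 in the 9 libraries, with lines joining libraries of equal number and bars for the mean ± SD of 3 libraries. Number 3 (triangles) is the highest in every group for LGR5, DCN and SMOC2 and the lowest in every group for ALDH1A1 and LGR4, while LEF1 in CYST is higher in number 1.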

How the data were processed

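RNA-seq libraries (SMART-Seq HT PLUS) of 9 cultures were analysed. As the authors describe, reads were trimmed and aligned to ARS-UCD2.0 in CLC Genomics Workbench with default parameters. The deposited files hold whole-number read counts per gene and, normalized by the authors, TPM per library. Annotation release and strand setting are not given in the sources used here, so reads of genes overlapping on opposite strands cannot be told apart.

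Counts were tested in R 4.3.3 with edgeR 4.0.16 (filterByExpr with a minimum count of 10, TMM, glmQLFit, glmQLFTest, two-sided) comparing 3 with 3 libraries, and p-values were adjusted by the Benjamini-Hochberg method over all genes tested and called at 0.05. The standard error is the Log2FC divided by the root of F. The scripts were tested on simulated data. Replicate numbers come from the sample titles. The column names of the deposited values carry other numbers for some libraries. Columns were matched to samples through the sample descriptions, so the blocks rest on the title numbers. Deviations from group means correlated at 0.293 to 0.673 in all 9 same-numbered pairs and at -0.505 to 0.0992 in the others, so the number was used as a block in a parallel fit. Alternatives were RLE, DESeq2 1.42.0, no filter, all 9 libraries, downsampled counts, limma 3.58.1 on log2(TPM + 1) or log2(TPM + 0.1), and each library left out. The test of the replicate number was added after the data were seen.

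The members and all gene lists were chosen with earlier results of these data known. From each wider list the text names genes called without the block, or else the gene with the lowest p for UG-LIKE against CYST and the gene with the highest mean TPM, plus the 3 genes most like LGR5, AXIN2 and ALDH1A1. Gene positions and strands are those deposited with the counts, matched by symbol for all 10 genes. PYGO2 was not found under its symbol.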

Additional observations from a re-analysis of the deposited data

How the results depend on the processing

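For UG-LIKE against CYST the count of members called was 0 without the block, also with RLE, without a filter, with all 9 libraries, downsampled, with limma and without each library (0 to 0). It was 1 (WNT5A) with the replicate block and with DESeq2, and 1 with the block combined with no filter, DESeq2, all 9 libraries or removal of number 3. For MAT + COL against CYST it was likewise 1 with the replicate block, with DESeq2, and with the block plus no filter, DESeq2, all 9 libraries, limma on log2(TPM + 1) or removal of number 3, and 0 to 0 without each library. The wider lists gave 2 calls for UG-LIKE against CYST, 10 with the replicate block, 11 with DESeq2, 4 without a filter, 4 with limma at either pseudocount and 0 to 4 without each library. The block gave 11 with no filter, 15 with DESeq2, 14 with all 9 libraries, 7 with limma, and 0, 6 and 14 without numbers 1, 2 and 3. For MAT + COL against CYST they gave 2 calls, 7 with the replicate block, 11 with DESeq2 and 0 to 4 without each library, and with the block 10 without a filter, 13 with DESeq2, 12 with all 9 libraries, 7 with limma and 2 to 18 without a number. For MAT + COL against MAT they gave 0 calls in every alternative except the block without number 3, where it was 2. Of all genes, the edgeR fits without and with the block called 1.79% and 10.6% for UG-LIKE against CYST. For MAT + COL against CYST these shares were 1.49% and 5.26%. The share of all genes called is not given for the other alternatives. Their counts thus describe the settings and are no result about the listed genes.

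The Log2FC turned sign in these cases, none of them called. The ranges with a library left out reached 0.45 for LGR4, 0.29 for WNT5A and 0.64 for ALDH1A1 in MAT + COL against MAT, and 0.82 for PROM1 and -0.59 for ALDH1A1 in MAT + COL against CYST. LGR4 for UG-LIKE against CYST was -0.0074 without CYST number 3 and -0.044 without UG-LIKE number 2, and for MAT + COL against MAT -0.019 without MAT + COL number 1, also with the block and without number 1. WNT5A for MAT + COL against MAT was -0.18 without MAT number 2, -0.028 without MAT + COL number 3 and -0.20 with the block and without number 2. ALDH1A1 for MAT + COL against MAT was -0.24 without MAT + COL number 1 and -0.013 with the block and without number 1. ALDH1A1 for MAT + COL against CYST was 0.27 without CYST number 1, 0.28 without MAT + COL number 3 and 0.017 with the block and without number 3. PROM1 for MAT + COL against CYST was -0.11 without MAT + COL number 2 and -0.17 with the block and without number 2, and RNF43 was -0.14 with the block and without number 3. CD44 for MAT + COL against CYST missed the threshold with limma (adjusted p = 0.0587 and 0.066). LGR4 passed for the replicate number only without CYST number 3 (adjusted p = 0.0314). Where a library was left out, its group's pair of libraries carried the fit, and the causes of these changes were not tested. AXIN2, WNT4, WNT7A and ZNRF3 are limited by depth.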

Other observations

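Some genes of the wider lists, named after their values were seen, had levels that stood apart in 1 or more libraries. PORCN, which attaches the lipid to WNT proteins, had a TPM of 63.7 and 57.4 in UG-LIKE numbers 1 and 2 and of 62.3 and 69.3 in MAT + COL numbers 1 and 2, but 4.45 and 4.26 in number 3 of these groups, against 7.42 to 14.3 in CYST, and did not pass for the replicate number (edgeR adjusted p = 0.116). TNKS2, a second tankyrase, had a TPM of 6.55 to 8.59 in number 1, of 0.177 to 0.189 in number 2 and of 0.379 to 2.38 in number 3, and was called for the replicate number with an edgeR adjusted p = 0.0022. ALDH1A2, a retinaldehyde dehydrogenase of stroma, had a TPM of 1.63 to 4.35 in number 2 and at most 0.377 elsewhere. ALDH1A2 is given as a description with no test, since it clears a filter over all 9 libraries only through number 2. The WNT receptor FZD10 reached a TPM of 14.8 and 16.8 in the UG-LIKE and MAT + COL libraries of number 3 and lay between 1.13 and 3.05 in the other 7, and did not pass either (edgeR adjusted p = 0.105).

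Markers of cycling cells were lower with EGF on day 5: their summed TPM over 6 genes was 520.8 to 844.3 in CYST, 195.5 to 366.4 in UG-LIKE and 193.5 to 363.5 in MAT + COL. Of the 6 genes 3 were called lower in UG-LIKE without the block and 5 with it, beside 1.79% and 10.6% of all genes. In MAT + COL against CYST 2 were called lower in either fit, beside 1.49% and 5.26% of all genes. None was called between MAT + COL and MAT, where 0% of all genes were called.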
